A study of Mus musculus with 11 samples.

Results

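The genes described here are 10 genes of antigen presentation by the major histocompatibility complex (MHC), chosen by name from the 24718 genes of the count table. For class I they are H2-K1, H2-D1, B2m, Tap1 and Nlrc5, and for class II H2-Aa, H2-Ab1, H2-Eb1, Cd74 and Ciita. All 10 were in the table and all 10 passed the filter on low counts. They were measured by bulk RNA-seq in marrow mesenchymal stem and progenitor cells (MSPCs), sorted as tdTomato-positive cells from female Lepr-Cre;LSL-tdTomato+/- mice, in which Cre driven by the leptin receptor gene switches on the red reporter in the cells that express it and in their descendants. The DOX4X group has 4 libraries from mice that, aged 8 to 10 weeks, received 4 intravenous injections of doxorubicin at 5 mg/kg with 1 week between injections. The DOX1X group has 3 libraries from young adult mice that received 1 intravenous injection at 10 mg/kg. The PBS group has 4 libraries from mice that received 4 intravenous injections of phosphate-buffered saline. Cells were collected 8 weeks after treatment. All groups share the reporter genotype, and the mouse strain is not given in the sources used here. The labels number the libraries of a group as biological replicates, and nothing says whether a library pools several animals. Doxorubicin is a cancer drug of the anthracycline family.

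MHC class I molecules sit on nearly all nucleated cells and show peptides from the cell's own proteins to CD8 T cells. MHC class II molecules show peptides taken up from outside to CD4 T cells, and B cells, dendritic cells and macrophages are the cells best known for carrying them. Interferon gamma raises both pathways, and NLRC5 and CIITA are the transactivators that switch on the class I and class II genes by binding, with other factors, to a shared promoter module of X and Y boxes. In marrow, leptin receptor-traced stroma is best known as a source of CXCL12 and stem cell factor for blood stem cells.

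Libraries held 31129352 to 36888310 counts in DOX4X, 33496356 to 42002065 counts in DOX1X and 29540422 to 42784036 counts in PBS. The stromal markers were abundant: Cxcl12 averaged 50090 ± 5130 CPM (counts scaled to library size; SD, n = 4) in DOX4X, 53380 ± 5930 (n = 3) in DOX1X and 53730 ± 3100 (n = 4) in PBS. The pan-leukocyte gene Ptprc, which these stromal cells should lack, stood at 24.76 ± 7.52 CPM in DOX4X, 23.16 ± 8.38 in DOX1X and 16.71 ± 4.44 in PBS, so every library held some transcripts of blood cells. The fourth PBS library has labels that disagree, since it is titled as a doxorubicin sample but its treatment is given as PBS. It is kept as PBS 4, and the class II results and the main counts over gene lists are also given without it. The column names give the flow cell of sequencing: PBS 1 to 4 and DOX1X 1 and 2 were on one, DOX1X 3 and DOX4X 1 to 4 on the other. No flow cell holds both PBS and DOX4X, so with group means only that comparison cannot be told apart from one between flow cells. Only a fit with flow cell as a term links these groups through DOX1X, where DOX1X 3 alone shares a flow cell with DOX4X.

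The promoters were searched for the letters of that module. RefSeq promoter windows of GRCm38.p6 (250 bases before to 50 after a start) were used for 6 of the 10 genes. These were H2-K1, H2-D1, B2m, Tap1, H2-Aa and H2-Eb1. None was found for H2-Ab1, Nlrc5 and Ciita, and Cd74 was left out of the search. The counts were made on GRCm39, so these coordinates belong to the windows alone. Each window was searched on both strands for the Y box letters CCAAT, for the X box core GCAAC and for the interferon-stimulated response element. Of 32851 such windows, 37.4% hold the first, 35.2% the second and 3.44% the third, so the first and the second alone are common. The last 150 bases before the start are shown for both class II chains and for the class I subunits, to let the order of the boxes be compared, with matches in capitals. For H2-K1 one of its 2 annotated starts is shown.
H2-Aa, chr17:34287824-34287973, minus strand: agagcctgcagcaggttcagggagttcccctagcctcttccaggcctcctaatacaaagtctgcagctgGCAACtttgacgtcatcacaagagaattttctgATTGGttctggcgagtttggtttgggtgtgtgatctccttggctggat
H2-Eb1, chr17:34305717-34305866, plus strand: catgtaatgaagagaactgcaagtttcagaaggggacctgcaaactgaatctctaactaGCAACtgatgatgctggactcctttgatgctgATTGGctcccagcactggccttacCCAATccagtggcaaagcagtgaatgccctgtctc
H2-K1, chr17:34000334-34000483, minus strand: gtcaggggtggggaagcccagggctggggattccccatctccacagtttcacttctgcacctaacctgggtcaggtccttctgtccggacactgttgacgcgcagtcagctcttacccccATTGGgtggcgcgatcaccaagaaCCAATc
H2-D1, chr17:35262944-35263093, plus strand: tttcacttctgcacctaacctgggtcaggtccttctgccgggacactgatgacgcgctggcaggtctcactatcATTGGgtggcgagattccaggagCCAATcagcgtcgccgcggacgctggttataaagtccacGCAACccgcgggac
B2m, chr2:122147537-122147686, plus strand: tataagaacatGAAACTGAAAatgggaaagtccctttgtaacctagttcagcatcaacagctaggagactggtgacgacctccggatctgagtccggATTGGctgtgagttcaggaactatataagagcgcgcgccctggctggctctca
In H2-Aa the X box core lies 81 bases and the Y box 48 bases before the start, with 28 bases between them. H2-Eb1 has the same order, with the X box core 91 bases and the Y box 59 bases before its start and 27 bases between them. The windows of H2-K1, H2-D1 and B2m each hold a Y box close to the start, and that of B2m also holds a response element match. H2-D1 has X box core matches at -212 and -14 from the start, on either side of its Y boxes. In Tap1 the order is turned round, with the Y box at -222 and the X box core at -196, outside the stretch shown. These matches are letters in a window and no measurement of binding.

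Levels of the 10 genes were ordered per kilobase of exon, as TMM-scaled CPM divided by the length of all exons joined in GENCODE M21, which is not known to be the authors' annotation. Medians over the 11 libraries were 5840 CPM per kilobase for B2m, the light chain of class I, 2790 for H2-D1 and 1170 for H2-K1, the heavy chains. The ranges of these 3 did not overlap. Cd74, the invariant chain of class II, followed at 44.7 CPM per kilobase and Tap1, a subunit of the peptide transporter, at 26.2, with overlapping ranges. H2-Ab1 (the beta chain of I-A) stood at 7.81, Nlrc5 at 6.84, H2-Eb1 (the beta chain of I-E) at 6.84 and H2-Aa (the alpha chain of I-A) at 3.59, each overlapping its neighbour in this order. Ciita was lowest at 0.133 CPM per kilobase, with 20 to 65 counts per library. The sorted cells thus held abundant class I transcripts, while class II chains were present at a small part of that level. Of the 100-base windows along the longest coding transcript, 4.64% of those of H2-D1 occur exactly in another gene's transcript, among them H2-Q6, H2-Q7 and H2-T23, and none of those of the other 9 genes does. How reads that map to several places were counted is not given, so reads of H2-D1 may be shared with those genes. The H2 genes are highly polymorphic, and the strain is not given, so the bearing of the haplotype on the counted levels of the H2 genes was not tested.

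None of the 10 genes passed the threshold in any comparison (edgeR's quasi-likelihood test, Benjamini-Hochberg adjusted over 17838 genes, adjusted p under 0.05). The background was as sparse: 0.146% of all genes passed in DOX4X against PBS, 0.00561% in DOX1X against PBS and 0.00561% in DOX4X against DOX1X. At an unadjusted p under 0.05, 4 of the 10 genes were higher in DOX4X than in PBS and 4 in DOX1X than in PBS, where 6% and 3.42% of all genes were. None was lower at that level in either comparison, where 7.85% and 3.74% of all genes were. All 8 of these values belong to class II genes. Without PBS 4, 2 of the 5 class II genes were higher at that level in DOX4X and 3 in DOX1X, where 6.41% and 5.28% of all genes were. With each library left out in turn, the count in DOX4X ran from 1 (without DOX4X 2) to 5 (without PBS 3). In DOX1X it ran from 1 (without DOX1X 2) to 5 (without PBS 3 or DOX4X 2). In DOX4X against DOX1X, 0 of the 10 had an unadjusted p under 0.05, where 2.23% of all genes were higher and 2.13% lower, and 0 passed the threshold with DESeq2 or limma-voom.

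**Figure D1:**
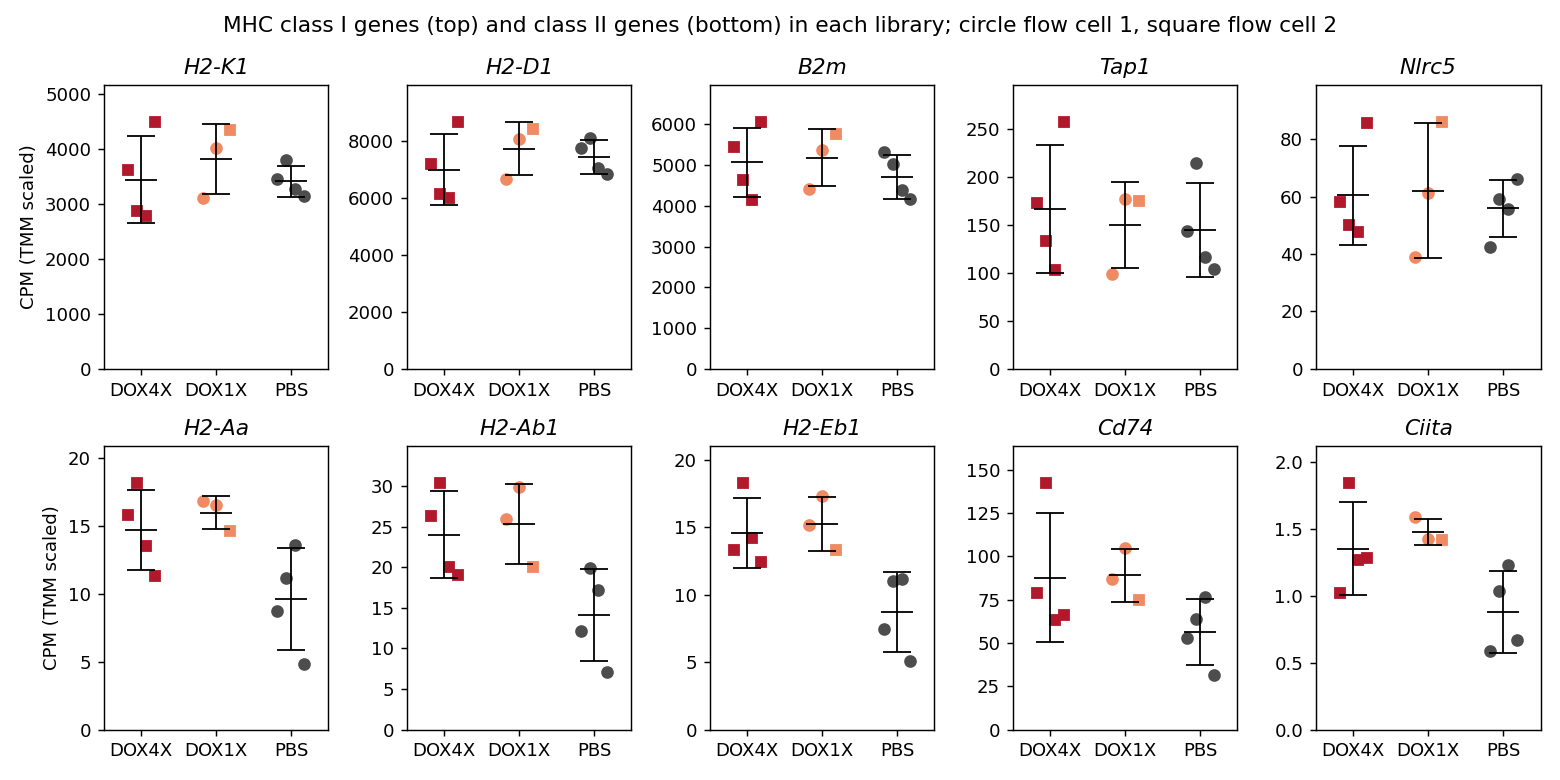
TMM-scaled CPM (vertical axes, from 0) of each gene in each library of DOX4X, DOX1X and PBS; circles are libraries of flow cell 1, squares of flow cell 2, and bars give the mean ± SD. The class I genes in the top row overlap between all groups, while H2-Eb1 lies between 12.4 and 18.3 CPM in DOX4X and between 5.07 and 11.2 CPM in PBS.

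Class II transcripts stood higher after both doxorubicin schedules, by 1.53- to 1.702-fold in DOX4X and by 1.58- to 1.796-fold in DOX1X, without passing the threshold. H2-Eb1 had 13.3, 18.3, 14.2 and 12.4 CPM in DOX4X 1 to 4 and 15.2, 17.3 and 13.3 CPM in DOX1X 1 to 3, against 7.48, 11.05, 11.2 and 5.07 CPM in PBS 1 to 4. Every doxorubicin library lay above every PBS library for this gene. Its log2 fold change was 0.74 in DOX4X against PBS (SE 0.23, edgeR adjusted p = 0.205) and 0.81 in DOX1X against PBS (SE 0.25, edgeR adjusted p = 0.596). H2-Ab1 had 26.3, 30.4, 20.1 and 19.1 CPM in DOX4X and 26.0, 29.9 and 20.1 CPM in DOX1X, against 12.2, 19.9, 17.3 and 7.07 CPM in PBS. The DOX4X and PBS ranges touched in 1 pair of libraries, DOX4X 4 and PBS 2, and DOX1X lay above PBS throughout. The log2 fold change of H2-Ab1 was 0.77 in DOX4X (SE 0.28, edgeR adjusted p = 0.259) and 0.84 in DOX1X (SE 0.29, edgeR adjusted p = 0.606), both against PBS. H2-Aa had 15.8, 18.2, 13.6 and 11.3 CPM in DOX4X and 16.8, 16.5 and 14.6 CPM in DOX1X, against 8.78, 11.2, 13.6 and 4.803 CPM in PBS. PBS 3 lay just above DOX4X 3 and above DOX4X 4, and DOX1X lay above PBS throughout. The PBS libraries spread widely, with a coefficient of variation of 39.2%, against 20.1% in DOX4X and 7.42% in DOX1X. The log2 fold change of H2-Aa was 0.62 in DOX4X (SE 0.26, edgeR adjusted p = 0.328) and 0.74 in DOX1X (SE 0.28, edgeR adjusted p = 0.615), both against PBS.

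The invariant chain and the transactivator also had higher values in both doxorubicin groups. Cd74, which holds the class II groove until peptide is loaded, had 78.7, 142.4, 63.4 and 65.9 CPM in DOX4X and 87.0, 104.9 and 75.0 CPM in DOX1X, against 52.8, 63.5, 76.6 and 31.7 CPM in PBS. DOX4X 2 was far above the rest, and DOX4X 3 and DOX4X 4 lay below PBS 3, as did DOX1X 3. Its log2 fold change was 0.64 in DOX4X (SE 0.29, edgeR adjusted p = 0.358) and 0.66 in DOX1X (SE 0.31, edgeR adjusted p = 0.69). Ciita had 1.02, 1.84, 1.26 and 1.28 CPM in DOX4X and 1.59, 1.43 and 1.42 CPM in DOX1X, against 0.583, 1.03, 1.23 and 0.667 CPM in PBS. DOX1X lay above PBS in every library and DOX4X overlapped it in DOX4X 1. Its log2 fold change was 0.62 in DOX4X (SE 0.30, edgeR adjusted p = 0.381) and 0.75 in DOX1X (SE 0.32, edgeR adjusted p = 0.658). The median log2 fold change of the 5 class II genes was 0.64 in DOX4X and 0.75 in DOX1X, beside 0.01 for all genes tested in both comparisons. Both comparisons use the same PBS libraries, so they are not separate evidence. Groups did not overlap for 1 class II gene (H2-Eb1) in DOX4X and for 4 in DOX1X, where 3.17% and 3.18% of all genes lay wholly above PBS. None of the 10 lay wholly below PBS, where 4.68% of all genes did in DOX4X and 3.82% in DOX1X.

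Single libraries moved these sizes. PBS 4, the library whose labels disagree, was lowest of all 11 for H2-Aa, H2-Ab1, H2-Eb1 and Cd74, and PBS 1 was lowest for Ciita. DOX4X 2 was highest of all 11 for each of the 5 class II genes. Without PBS 4 the median of the 5 log2 fold changes was 0.52 in DOX4X against PBS and 0.63 in DOX1X against PBS. Without DOX4X 2 the median in DOX4X against PBS was 0.51. Cd74 moved by over 1.5 times there, to 0.32 without DOX4X 2, and H2-Aa to 0.40 without PBS 4. With DESeq2, H2-Eb1 passed the threshold in DOX4X against PBS (log2 fold change 0.74, DESeq2 adjusted p = 0.0483), where DESeq2 called 3.73% of the genes to which it gave an adjusted p.

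**Figure D2:**
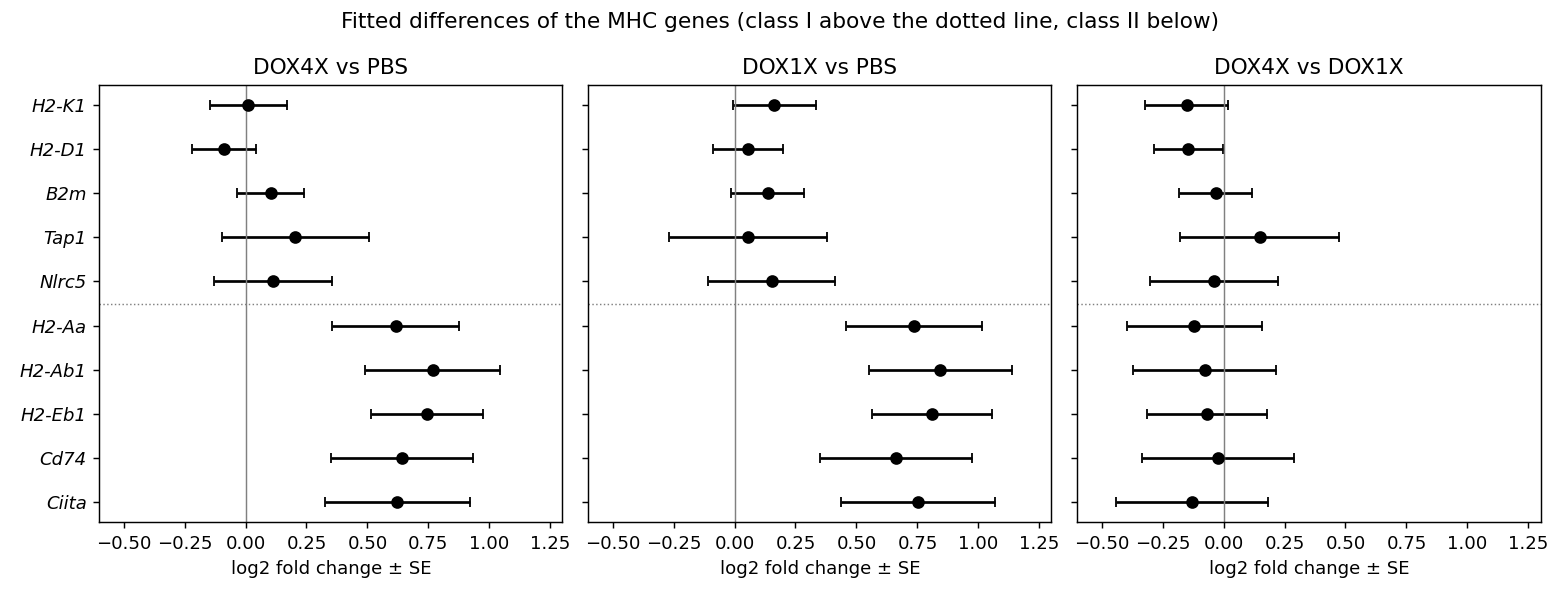
Log2 fold change ± SE (horizontal axes) of each gene, class I above the dotted line and class II below, in DOX4X against PBS, DOX1X against PBS and DOX4X against DOX1X. The class II genes lie between 0.62 and 0.84 in both comparisons with PBS, while the class I genes lie between -0.09 and 0.20 there.

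Class I genes showed no such shift in the fit without covariates. H2-K1 had 3617, 2878, 2782 and 4488 CPM in DOX4X 1 to 4 and 3111, 4016 and 4337 CPM in DOX1X 1 to 3, against 3449, 3792, 3269 and 3140 CPM in PBS 1 to 4. DOX4X held both the lowest and the highest library. Its log2 fold change was 0.01 in DOX4X (SE 0.16, edgeR adjusted p = 0.984) and 0.16 in DOX1X (SE 0.17, edgeR adjusted p = 0.84). H2-D1 averaged 7003 ± 1240 CPM (SD, n = 4) in DOX4X and 7739 ± 930 (n = 3) in DOX1X, against 7449 ± 587 (n = 4) in PBS. B2m averaged 5070 ± 849 CPM in DOX4X and 5185 ± 701 in DOX1X, against 4718 ± 540 in PBS. The differences of both genes were smaller than the spread within a group, with log2 fold changes of -0.09 (SE 0.13) and 0.10 (SE 0.14) in DOX4X against PBS. Tap1 had 172.7, 133.2, 103.5 and 257.6 CPM in DOX4X and 98.7, 177.2 and 175.4 CPM in DOX1X, against 143.7, 214.5, 116.5 and 104.2 CPM in PBS. Its highest library was 2.61 times its lowest, the groups overlapped, and its log2 fold change was 0.20 in DOX4X (SE 0.30, edgeR adjusted p = 0.826). Nlrc5, the class I transactivator, had 58.1, 50.2, 47.6 and 85.5 CPM in DOX4X and 39.0, 61.2 and 85.9 CPM in DOX1X, against 42.5, 59.0, 55.8 and 66.2 CPM in PBS. Its log2 fold change was 0.11 in DOX4X (SE 0.24) and 0.15 in DOX1X (SE 0.26). The directions of class I genes depended on the fit: with flow cell as a term, H2-K1, B2m, Tap1 and Nlrc5 turned to values below 0 in DOX4X against PBS (-0.27, -0.14, -0.14 and -0.67).

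In DOX4X against DOX1X, all 10 log2 fold changes lay between -0.15 and 0.15. The lowest values were those of H2-K1 (-0.15, SE 0.17) and H2-D1 (-0.14, SE 0.14), and Tap1 had the highest (0.15, SE 0.33). The class II genes lay between -0.13 (Ciita, SE 0.31) and -0.02 (Cd74, SE 0.31). The groups overlapped for all 10 genes, where 3.19% of all genes lay wholly above and 2.79% wholly below DOX1X.

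Among class I transcripts the extreme libraries were often the same and came from the doxorubicin groups, with Nlrc5 partly apart. DOX4X 4 was highest of all 11 libraries for H2-K1, H2-D1, B2m and Tap1, and DOX1X 3 was highest for Nlrc5. DOX4X 3 was lowest for H2-K1, H2-D1 and B2m, and DOX1X 1 was lowest for Tap1 and Nlrc5. Over the 11 libraries Nlrc5 followed H2-K1 with Pearson r = 0.747 (permutation p = 0.00849 from 100000 resamples, adjusted over 12 pairs 0.0146) and Spearman's rho = 0.736 (permutation p = 0.0131, adjusted 0.0225). Pearson r was 0.359 within flow cell 1 (6 libraries), which holds PBS 4, and 0.975 within flow cell 2 (5 libraries). For Nlrc5 with H2-D1, r was 0.641 (permutation p = 0.0342, adjusted 0.0476) and rho 0.691 (permutation p = 0.0218, adjusted 0.0291), with 0.257 and 0.984 within the flow cells. For Nlrc5 with Tap1, r was 0.64 (permutation p = 0.0357, adjusted 0.0476) and rho 0.655 (permutation p = 0.0331, adjusted 0.0398), with 0.32 and 0.852 within the flow cells. Nlrc5 with B2m did not pass (r = 0.57, permutation p = 0.0682, adjusted 0.0744; rho = 0.527, permutation p = 0.102, adjusted 0.111), with -0.101 and 0.912 within the flow cells. Without DOX1X 1 and DOX1X 3, the libraries farthest from the median of Nlrc5, r was 0.674 with H2-K1, 0.54 with H2-D1, 0.561 with Tap1 and 0.401 with B2m. Without PBS 4, r was higher for each pair: 0.823 with H2-K1, 0.695 with H2-D1, 0.771 with Tap1 and 0.727 with B2m. These relations without PBS 4 were not given a p.

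The genes outside the 10 whose pattern was most like the mean standardised level of the 5 class I genes were H2-T23 (r = 0.98), Tgtp2 (0.972), Gbp2 (0.954), Irgm1 (0.951) and Igtp (0.946), among 11044 genes with at least 5 CPM on average over the 11 libraries. H2-T23 encodes the non-classical class I heavy chain Qa-1, and the other 4 are GTPases induced by interferon. For the class II genes the closest were Rpl23 (r = 0.946), Dffa (0.932), Cip2a (0.894), Rps26 (0.891) and Dpp4 (0.889). Rpl23 and Rps26 encode ribosomal proteins, and Dffa encodes the inhibitor of a nuclease of apoptosis. These values rank genes by shared variation, which includes differences in the makeup of the libraries.

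**Figure D3:**
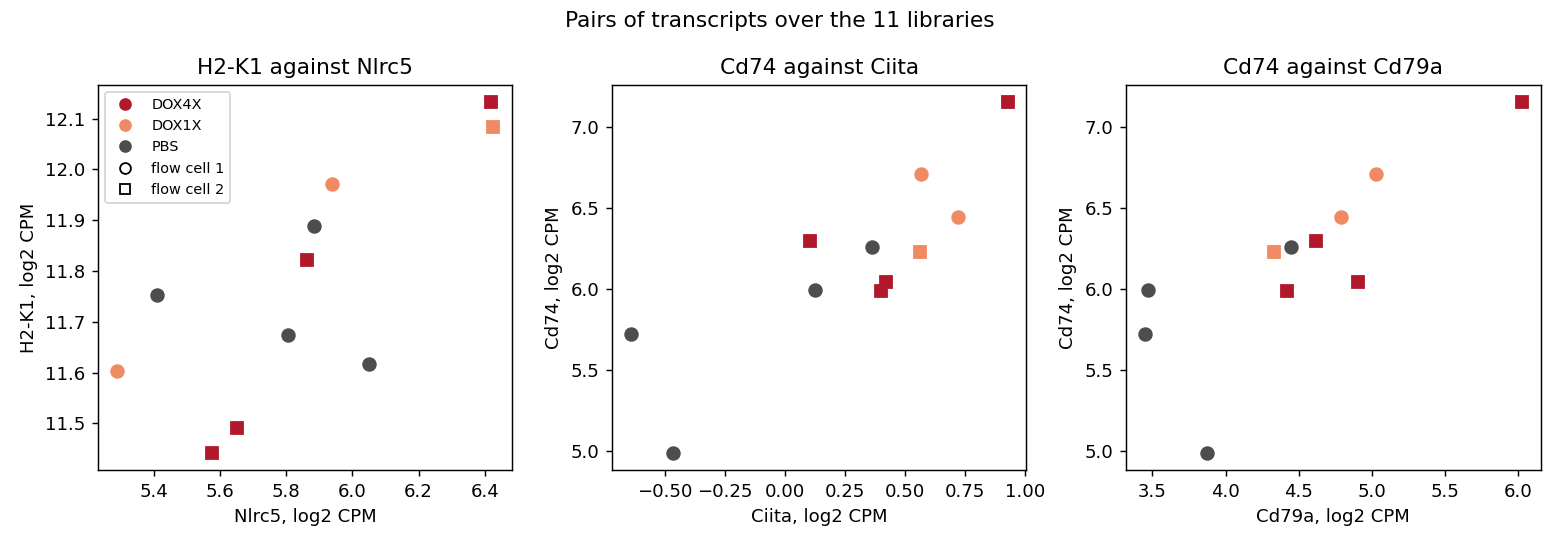
Log2 CPM of H2-K1 against Nlrc5, of Cd74 against Ciita and of Cd74 against Cd79a, 1 point per library, coloured by group, with circles for flow cell 1 and squares for flow cell 2. H2-K1 and Nlrc5 have r = 0.747 with the groups mixed, while PBS 4 has the lowest and DOX4X 2 the highest Cd74 in both other plots.

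Class II genes were correlated with their transactivator over all libraries pooled, and Cd74 was also set against markers of other cells. The permutations ran over all libraries without regard to group. The class II genes and Cd79a had higher mean values in both doxorubicin groups than in PBS. These p-values therefore do not separate variation within groups from a shift between groups. Relations within groups were not tested. Ciita and H2-Eb1 had r = 0.899 (permutation p = 0.0005, adjusted 0.003) and rho = 0.845 (permutation p = 0.00202, adjusted 0.00872). Ciita and Cd74 had r = 0.834 (permutation p = 0.00096, adjusted 0.00384) and rho = 0.773 (permutation p = 0.00776, adjusted 0.0186). Ciita and H2-Aa had r = 0.831 (permutation p = 0.00209, adjusted 0.00627) and rho = 0.818 (permutation p = 0.00341, adjusted 0.0102). Ciita and H2-Ab1 had r = 0.821 (permutation p = 0.00319, adjusted 0.00766) and rho = 0.736 (permutation p = 0.0128, adjusted 0.0225). Without PBS 1 and PBS 4, the libraries farthest from the median of Ciita, r was 0.77 with H2-Eb1, 0.751 with Cd74, 0.648 with H2-Aa and 0.495 with H2-Ab1. Within flow cell 1 it lay between 0.855 and 0.905 for the 4 genes, and within flow cell 2 it was 0.346 with H2-Ab1, 0.424 with H2-Aa, 0.738 with Cd74 and 0.778 with H2-Eb1. Of the class II genes only Cd74 was set against a B cell marker. It followed Cd79a, the signalling chain of the B cell receptor, with r = 0.79 (permutation p = 0.00641, adjusted 0.0128) and rho = 0.836 (permutation p = 0.00218, adjusted 0.00872). That relation was 0.705 and 0.894 within the flow cells and 0.634 without PBS 1 and DOX4X 2, and 0.878 without PBS 4. With Csf1r, the receptor that marks macrophages, Cd74 had r = 0.626 (permutation p = 0.0414, adjusted 0.0497) and rho = 0.709 (permutation p = 0.0181, adjusted 0.0271). That relation was 0.9 within flow cell 1 but 0.259 within flow cell 2, and 0.395 without PBS 4 and DOX1X 3 and 0.295 without PBS 4 alone, so it rests on few libraries. With Flt3, a receptor of dendritic cell precursors, Cd74 did not pass (r = 0.503, permutation p = 0.122, adjusted 0.122; rho = 0.418, permutation p = 0.201, adjusted 0.201), with 0.923 and 0.038 within the flow cells and 0.264 without PBS 4 and DOX1X 3 and 0.178 without PBS 4 alone.

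Of the cells best known for class II, the B lineage had markers with higher values in both doxorubicin groups, while macrophage and dendritic cell markers were mixed. All 16 B lineage markers had a higher value in DOX4X than in PBS (median log2 fold change 1.167), 13 with an unadjusted p below 0.05 but 0 past the adjusted threshold, and all 16 in DOX1X (median 0.81), 4 of them at an unadjusted p under 0.05. At that level 6% and 3.42% of all genes were higher. Without PBS 4, 15 of 16 markers were higher in DOX4X (median 1.163) and 16 of 16 in DOX1X (median 0.82). Of these, 12 and 4 had an unadjusted p under 0.05, where 6.41% and 5.28% of all genes were higher at that level. Over all genes, 52.2% had higher values in DOX4X than in PBS and 51.2% in DOX1X than in PBS. The summed B lineage level ran from 201 to 673 CPM in DOX4X and from 326 to 844 CPM in DOX1X, against 119 to 555 CPM in PBS. Cd79a averaged 35.23 ± 20.2 CPM (SD, n = 4) in DOX4X and 26.75 ± 6.27 (n = 3) in DOX1X, against 14.57 ± 5.11 (n = 4) in PBS, with log2 fold changes of 1.27 (SE 0.35) in DOX4X and 0.88 (SE 0.37) in DOX1X. Monocyte and macrophage markers had higher values for 9 of 15 genes in each comparison with PBS (medians 0.27 in DOX4X and 0.06 in DOX1X; without PBS 4, 9 and 6 genes, medians 0.12 and -0.13), with sums of 358 to 599 CPM in DOX4X and 400 to 470 CPM in DOX1X, against 338 to 521 CPM in PBS. Dendritic cell markers had sums of 62.3 to 91.3 CPM in DOX4X and 50.2 to 71.6 CPM in DOX1X, against 46.7 to 65.0 CPM in PBS, and of their 9 tested genes 6 had higher values in DOX4X (median 0.31) and 5 in DOX1X (median 0.04). Without PBS 4 these were 6 (median 0.25) and 4 (median -0.11). None of the defining genes Cd79a, Csf1r, Adgre1, Flt3 and Itgax was at 0 in any library, while Xcr1 had no count in PBS 1 and Batf3 none in PBS 4 and DOX4X 1. In bulk samples a larger share of such cells and more RNA per cell cannot be told apart.

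The class II values were smaller when such markers entered the fit. With the mean log2 CPM of the B lineage, macrophage and dendritic cell markers as a covariate, the median log2 fold change of the 5 class II genes was 0.26 in DOX4X against PBS and 0.49 in DOX1X against PBS. H2-Eb1 then had 0.40 (SE 0.24) in DOX4X and 0.55 (SE 0.23) in DOX1X, and Cd74 had -0.01 (SE 0.22) and 0.23 (SE 0.21). With B lineage, macrophage, neutrophil and erythroid markers instead, the medians were 0.30 and 0.35, and 0 of the 5 had an unadjusted p under 0.05 in either comparison. The class I medians were 0.10 and 0.14 without a covariate, 0.21 and 0.26 with the first marker set and 0.23 and 0.32 with the second. The class II and class I medians thus lay closer together in these fits. With flow cell as a term the class II medians were 1.00 and 0.80. The SEs in DOX4X against PBS were larger there, with 0.47 against 0.23 for H2-Eb1 and 0.60 against 0.29 for Cd74. An unadjusted p under 0.05 was then left for 1 of the 5 in DOX4X and 3 in DOX1X, against 4 and 4 without the term. The part of blood cells in the class II values was not tested beyond these fits.

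**Figure D4:**
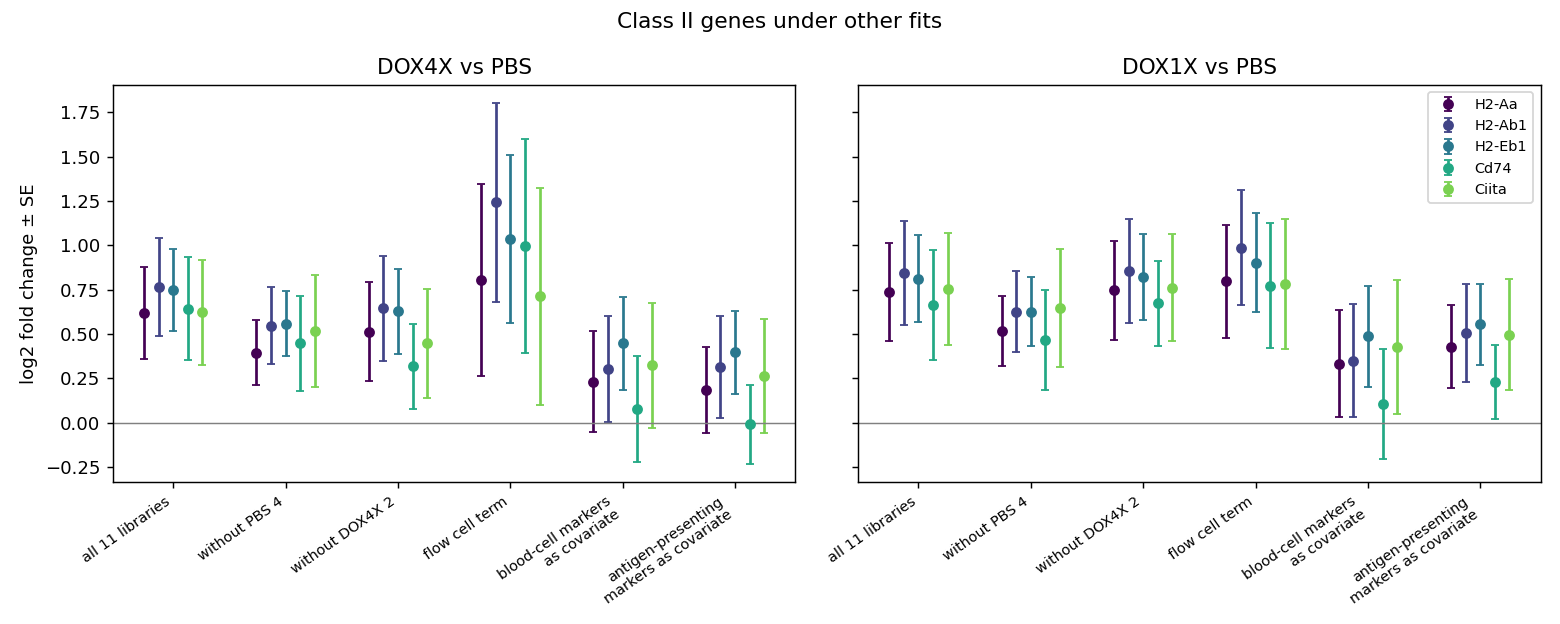
Log2 fold change ± SE (vertical axis) of the 5 class II genes in DOX4X against PBS and DOX1X against PBS, with all 11 libraries, without PBS 4, without DOX4X 2, with flow cell as a term, and with either marker covariate. The values lie lower with the marker covariates, where Cd74 is at -0.01 in DOX4X against PBS with antigen-presenting cell markers.

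Genes of the wider pathway were counted from lists that hold none of the 10. Of 11 genes of class II loading and endosomal processing, 9 had higher values in DOX4X than in PBS (median log2 fold change 0.44) and 8 in DOX1X (median 0.42), with 0 past the threshold. At an unadjusted p under 0.05, 3 were higher and 0 lower in DOX4X, where 6% and 7.85% of all genes were, and 2 were higher and 2 lower in DOX1X, where 3.42% and 3.74% of all genes were. Without PBS 4 the list had 9 and 8 higher values (medians 0.32 and 0.35). H2-Ob, a chain of the H2-O inhibitor of peptide loading that is known from B cells, averaged 3.76 ± 1.36 CPM in DOX4X and 3.11 ± 0.421 in DOX1X, against 1.63 ± 0.445 in PBS (log2 fold changes 1.21, SE 0.29, in DOX4X and 0.93, SE 0.31, in DOX1X). H2-DMb2, a chain of the H2-DM peptide exchanger, averaged 1.99 ± 0.705 CPM in DOX4X and 2.25 ± 0.697 in DOX1X, against 0.887 ± 0.283 in PBS (2.25-fold higher in DOX4X and 2.535-fold higher in DOX1X, edgeR adjusted p = 0.186 and 0.57). For both genes all doxorubicin libraries lay above all PBS libraries. H2-DMa, the partner chain of H2-DM, had 0.66 (SE 0.27) in DOX4X and 0.54 (SE 0.28) in DOX1X, and 0.47 and 0.35 without PBS 4. H2-DMb1, the more abundant beta chain of H2-DM, averaged 13.59 ± 1.76 CPM in DOX4X and 10.47 ± 1.24 in DOX1X, against 12.66 ± 1.93 in PBS (log2 fold changes 0.10, SE 0.15, in DOX4X and -0.27, SE 0.16, in DOX1X). The endosomal proteases Ctsl and Lgmn had -0.26 (SE 0.11) and -0.29 (SE 0.12) in DOX1X. Of 12 genes of class I processing and loading (proteasome subunits, Tap2, tapasin, chaperones), 3 had higher and 9 lower values in DOX4X than in PBS, within a range of -0.19 to 0.19, and 0 had an unadjusted p under 0.05 in any comparison. Of 12 tested among 15 other class I heavy chains, 6 had higher and 6 lower values in DOX4X (median 0.02), with H2-Q10 at -0.26 (SE 0.10) and Mr1, which shows vitamin metabolites to T cells, at -0.23 (SE 0.09). H2-Q2, H2-T3 and H2-M2 were too low to be tested.

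The regulators of both pathways were evenly split in DOX4X and had mostly lower values in DOX1X, by a small amount in the median. Of 16 genes of the MHC enhanceosome and interferon gamma signalling, 8 had higher and 8 lower values in DOX4X than in PBS (median -0.02), and 4 had higher and 12 lower values in DOX1X (median -0.05). Without PBS 4, 5 had higher values in DOX4X (median -0.07) and 3 in DOX1X (median -0.10). Ifngr2, a chain of the interferon gamma receptor, had -0.28 (SE 0.08, edgeR adjusted p = 0.183) in DOX4X, with all its libraries below PBS. Jak1, a kinase of that receptor, had -0.26 (SE 0.09, edgeR adjusted p = 0.242) in DOX4X and -0.40 (SE 0.10, edgeR adjusted p = 0.515) in DOX1X. Jak2, of the same list, had -0.08 (SE 0.14) in DOX4X and 0.07 (SE 0.15) in DOX1X. Of 8 costimulatory and checkpoint ligands, 6 were tested and 5 had higher values in DOX4X (median 0.21), with 0 at an unadjusted p under 0.05.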

How the data were processed

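RNA-seq counts per gene were available for 11 libraries. The deposited values are raw whole-number counts, with no normalization. The submitters' processing notes name STAR 2.7.9a, featureCounts 2.0.1, Trim Galore 0.6.6 and the GRCm39 build, beside SAMtools 1.17, MultiQC 1.7 and FastQC 0.11.5. The annotation, the strand setting and how multi-mapped reads were counted are not given there. Per the labels' protocols, cDNA was made with SMART-Seq v4 Plus, which does not mark strand.

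Genes were filtered with filterByExpr of edgeR 4.0.16 (R 4.3.3), leaving 17838 genes with at least 99.91% of each library's counts, and scaled by TMM. All 11 libraries were fitted with group means only and tested two-sided with edgeR's quasi-likelihood test, Benjamini-Hochberg adjusted over all genes tested. Each SE is the log2 fold change divided by the square root of its F value. CPM are TMM-scaled, and log2 CPM for the 12 relations used a prior count of 2. Spread between libraries enters every p, and at these depths counting error is small for the 10 genes except Ciita. It is larger for list genes with few counts, such as Xcr1 with at most 21 in a library. DESeq2 1.42.0 and limma-voom (limma 3.58.1) were alternatives, beside other scaling, filters, covariates, flow cell, a replicate block and each library left out. The fit was checked on simulated data. The named genes are the 10 genes, genes of each list with the smallest p, defining markers and the 5 closest in pattern to each class. Genes and lists were chosen with earlier results of these data known. The labels do not tie mice across groups by replicate number, so libraries were treated as unpaired. Same-numbered libraries correlated between -0.119 and 0.347 in their deviations from group means, and 2 of 10 pairs exceeded 0.1. With so few libraries per group these values cannot exclude a pairing. Some genes of the lists, and 1 of the 12 relations, are not reported here. List counts, single list genes and relations without PBS 4 were added after seeing the data.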

Additional observations from a re-analysis of the deposited data

Results flagged for a closer look

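Of 56 sets of 4 libraries screened (each gene and each summed list in DOX4X and in PBS), 2 held a library whose gap to the nearest other, divided by the range, exceeded Dixon's critical value for 4 samples. Chance alone gives about 1 in 20. None of the 10 genes was among them. The summed level of the class II loading and endosomal list in PBS was 917.5 CPM in PBS 4, against 1051 to 1067 CPM in the other PBS libraries. The summed level of the stromal identity list was 79760 CPM in PBS 1, against 69060 to 70660 CPM in the other PBS libraries.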

How the results depend on the processing

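The limits lie in the number of libraries, in the flow cells that separate DOX4X from PBS, in transcripts of other cells and in 1 library with labels that disagree. The number of the 10 genes past the threshold was 0 in each comparison and each alternative, except 1 (H2-Eb1) with DESeq2 in DOX4X against PBS. Over all alternatives, 103 of 104 values of class II genes in DOX4X against PBS and 109 of 109 in DOX1X against PBS were above 0, while 31 of 105 and 15 of 110 values of class I genes were below 0. These values are refits of the same libraries for 5 genes of each class, so they are not separate evidence. The adjusted p of H2-Eb1 in DOX4X against PBS ran from 0.0483 (DESeq2) to 0.541 (blood-cell covariate).

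Over all genes, 26 passed in DOX4X against PBS, 1 in DOX1X against PBS and 1 in DOX4X against DOX1X. With DESeq2 these counts were 562, 52 and 30, and with the replicate block 10, 6 and 2. In DOX4X against PBS they were 56 with limma-voom, 1 with only the compared groups, 6 with flow cell as a term, 0 with the blood-cell covariate (2071 genes at an unadjusted p under 0.05) and 10 with the antigen-presenting cell covariate. Within flow cell 1, 5 genes passed in DOX1X against PBS. With a library left out, the counts ran from 0 (without DOX4X 1, 2 or 3) to 80 (without PBS 4) in DOX4X against PBS, and from 1 to 2 in both others.

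Values that changed sign, all with an adjusted p above 0.05, were these. In DOX4X against PBS, H2-K1 had -0.005 with the replicate block. With flow cell as a term H2-K1 had -0.271, B2m -0.135, Tap1 -0.143 and Nlrc5 -0.666. H2-D1 had 0.039 with the blood-cell covariate and 0.033 with the antigen-presenting cell covariate, where Cd74 had -0.009. In DOX1X against PBS, H2-D1, Tap1 and Nlrc5 had -0.022, -0.159 and -0.115 with limma-voom, -0.012, -0.069 and -0.157 with flow cell as a term, and -0.015, -0.071 and -0.159 within flow cell 1. In DOX4X against DOX1X, B2m and Nlrc5 had 0.066 and 0.253 with limma-voom, and Nlrc5 0.054 with the antigen-presenting cell covariate. With the replicate block H2-Aa, H2-Ab1, H2-Eb1 and Cd74 had 0.072, 0.113, 0.071 and 0.117. With flow cell as a term Tap1, H2-Aa, H2-Ab1, H2-Eb1 and Cd74 had -0.073, 0.008, 0.256, 0.132 and 0.224, and within flow cell 2, where DOX1X 3 stands alone and is assumed to vary like DOX4X, -0.072, 0.012, 0.259, 0.134 and 0.226. The replicate block changed no call among the 10 genes. The cause of these changes was not tested.

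With each library left out in turn, the ranges that crossed 0 in DOX4X against PBS were -0.142 to 0.102 for H2-K1, -0.084 to 0.457 for Tap1 and -0.103 to 0.211 for Nlrc5. In DOX1X against PBS they were -0.012 to 0.149 for H2-D1, -0.079 to 0.308 for Tap1 and -0.156 to 0.397 for Nlrc5. In DOX4X against DOX1X they were -0.137 to 0.052 for B2m, -0.141 to 0.32 for Tap1, -0.286 to 0.268 for Nlrc5, -0.22 to 0.06 for H2-Ab1, -0.194 to 0.033 for H2-Eb1 and -0.356 to 0.114 for Cd74.

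Without PBS 4, chosen after seeing the data, 5 of 16 enhanceosome and interferon gamma genes had higher values in DOX4X than in PBS, against 8 with it. The other 29 list counts moved by at most 1.5 times, among them macrophage markers in DOX1X (6 of 15, against 9).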

Other observations

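All 10 endothelial markers had higher values in DOX4X than in PBS (median log2 fold change 0.89) and all 10 had lower values in DOX1X than in PBS (median -0.58), while the class II genes stood higher in both. In DOX4X against DOX1X all 10 endothelial markers lay above in every library, where 3.19% of all genes did, and 0 of the 5 class II genes did. T and natural killer cell markers had higher values for 12 of 12 genes in both comparisons with PBS (medians 1.04 and 0.74), and erythroid markers for 9 of 9 (medians 1.22 and 1.16). The T and natural killer cell markers were low, with sums of 14.3 to 32.1 CPM in DOX4X, 13.1 to 27.2 CPM in DOX1X and 8.51 to 17.5 CPM in PBS. Among them Trac was higher in DOX1X by a log2 fold change of only 0.001. Neutrophil markers had higher values for 8 of 11 genes in DOX4X (median 0.51) and 11 of 11 in DOX1X (median 1.58). Of the 3 tested plasma cell markers, 3 and 2 had higher values (medians 0.36 and 1.29). All 5 pan-leukocyte genes had higher values in both (medians 0.66 and 0.47), and of 10 stromal identity genes 4 did in each (medians -0.14 and -0.10). None of these genes passed the threshold over all genes with edgeR. Without PBS 4, the medians in DOX4X against PBS were 0.62 for endothelial markers (10 of 10 higher), 1.27 for T and natural killer cell markers (11 of 12), 1.05 for erythroid markers (9 of 9), 1.12 for neutrophil markers (8 of 11) and 0.10 for plasma cell markers (2 of 3). In DOX1X against PBS they were -0.90 (0 of 10), 1.157 (10 of 12), 1.154 (9 of 9), 2.06 (10 of 11) and 0.87 (2 of 3) for the same lists.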
